A study of Nothobranchius furzeri with 228 samples.

Results

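The 100 genes described here were those whose transcripts fell between 10 and 20 weeks of age in every range of fish numbers, ranked by their shallowest fall, in the fin of *Nothobranchius furzeri*, a short-lived annual killifish. They were chosen from a table of 26739 genes. Counts were turned into CPM, the usual unit that scales each library to its total, and for each fish the difference of log2(CPM + 1) between the later and the earlier sample was taken. Of the genes with a mean CPM of 5 or more, 12258 in all, the mean difference was computed in fish 1 to 50, fish 51 to 84 and fish 85 and above. The genes were ranked by the largest of these 3 means, and the 100 lowest were kept, with rule values from -1.29 to -0.49. The contrast of the ages therefore chose the genes, and their changes with age are given as a description without a test. In the whole table, 1466 eligible genes (11.96%) had all 3 means below 0, and 1920 had all 3 above 0.

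The samples were fin clips of 114 male fish of the strain MZM-0410, each clipped at 10 and again at 20 weeks, and the age at death was recorded for all of them but 1. The libraries held 15854077 to 37764097 counts. The number ranges are no group of the study: they contained 48, 34 and 32 fish with median ages at death of 311, 217 and 409 days, and what else separates them is not given in the sources used here. A second clip also came later, from a fish that had been clipped before, so that age, clip order and date cannot be told apart.

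The fin is a sheet of epidermis over bony rays, with fibroblasts, vessels, nerves and pigment cells in the tissue between. Fibroblasts and the cells that line the rays secrete fibrillar collagens, collagen VI, proteoglycans and matricellular proteins, which are assembled outside the cell and remodelled by metalloproteinases. Matrix genes are active while a tissue grows or repairs itself. Of the 100 genes, 18 carried a name in the annotation tables used here and 82 did not, whereas 33.6% of the eligible genes were named. Those tables gave names for 5613 of the 26739 genes, so that a missing name is no trait of a gene. The roles given for the named genes are those known in mammals or other vertebrates. A clip is a mixture of cells, so that fewer cells of a type and less RNA per cell cannot be told apart in any of the values that follow.

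Libraries of the same fish were compared by their levels relative to fish of neighbouring numbers. The genes used were those whose relative levels went together best between the ages in the other fish. In 12 of the 114 fish the earlier and the later library did not match each other best, and 9 of these were fish of the last range whose libraries matched those of another of the 9. An exchange of libraries within a range leaves that range's mean change as it is. Without the 12 fish, 90 of the 100 genes were chosen again. The composition factor of edgeR (TMM) lay below 0.8 in 4 libraries of 4 fish, and without these fish 88 of the 100 were chosen again.

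Together the 100 genes held 4.79% ± 1.66 of all counts at 10 weeks and 2.19% ± 1.06 at 20 weeks (SD, n = 114 fish). In fish 1 to 50 the share ranged from 2.04 to 7.25% at 10 weeks and from 0.650 to 3.64% at 20 weeks. In fish 51 to 84 it went from 1.68 to 5.71% down to 0.430 to 1.59%, and in fish 85 and above from 4.80 to 9.51% down to 1.28 to 5.27%. The share was lower in the later sample in all fish but 1, and the ranges of the ages did not overlap in fish 51 to 84. Of this share, 3 genes without a name alone held 2.55% ± 1.01 at 10 weeks and 1.05% ± 0.644 at 20 weeks, and the other 97 genes went from 2.24% ± 0.670 to 1.14% ± 0.431.

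**Figure D1:**
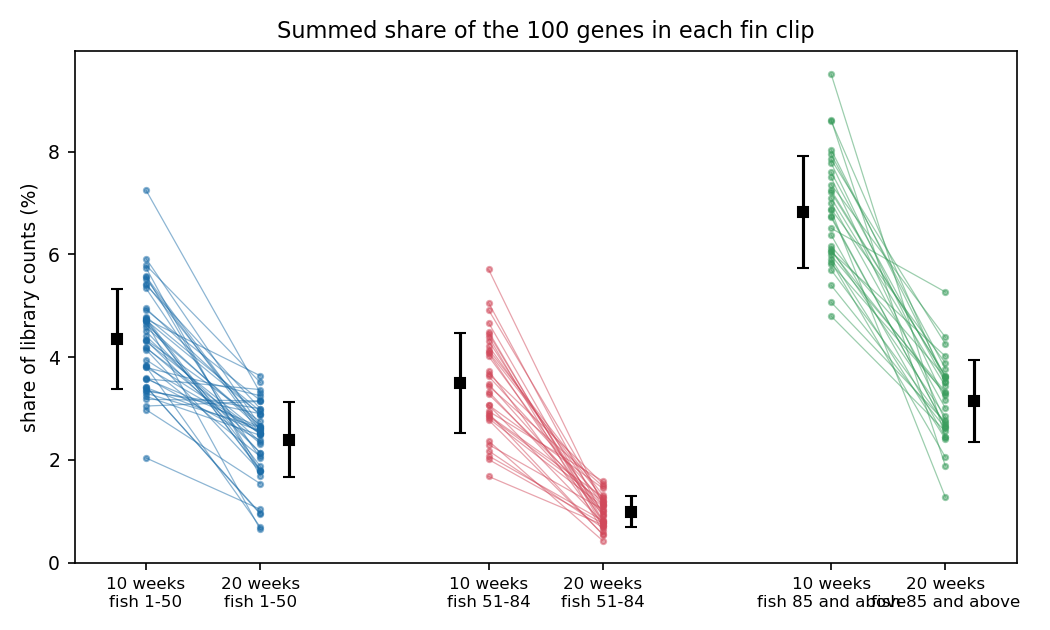
Share of each library's counts that came from the 100 genes (vertical axis, percent), at 10 and 20 weeks in the 3 ranges of fish numbers. Each thin line joins the samples of 1 fish, and squares with bars are means ± SD; means went from 4.35 to 2.39% in fish 1 to 50, from 3.50 to 0.990% in fish 51 to 84 and from 6.83 to 3.15% in fish 85 and above.

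The mean change of a gene over all fish lay between -2.21 and -0.53, with a median of -0.90, against a median of 0.00 over the eligible genes. The medians in the 3 ranges were -0.71, -1.08 and -0.90 in the order of the numbers, against -0.01, 0.00 and 0.07 for the eligible genes. In edgeR's quasi-likelihood test with the fish as a block, 5088 of 17116 genes tested (29.7%) were lower at 20 weeks and 5566 (32.5%) were higher. All 100 chosen genes were among the lower ones, which the rule itself brings about. A gene was lower in 75 to 114 of the 114 fish, and 68 of the genes were lower in at least 100 fish. Taken per fish, the mean change over the 100 genes was below 0 in all 114 fish, from -2.51 to -0.10 in fish 1 to 50, from -2.01 to -0.62 in fish 51 to 84 and from -1.83 to -0.63 in fish 85 and above. In a single fish, 55 to 100 of the genes were lower in fish 1 to 50, 72 to 100 in fish 51 to 84 and 87 to 100 in fish 85 and above.

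The fall was not of the same depth in the 3 ranges. For 58 genes it was deepest in fish 51 to 84, for 33 in fish 85 and above and for 9 in fish 1 to 50. This count was not made over the eligible genes, so that it is not shown to be particular to the set. Lists of cell division and DNA replication genes, with none chosen, also had their lowest median change in fish 51 to 84, -1.09 and -1.29. Genes of the cytosolic ribosome had their highest there, 0.38. Only in fish 51 to 84 did any mean lie below -2, which was the case for 12 genes. For 17 genes the 3 means lay within 0.25 of each other. At the edge of the choice, the last genes inside were PTS, with a rule value of -0.492, and Nfu_g_1_022363, with -0.488. The first genes outside were Nfu_g_1_015828, with -0.487, and STARD10, which encodes a lipid transfer protein, with -0.486.

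The 100 genes included 4 genes named as collagen chains. COL5A2 encodes a chain of collagen V, which sits inside collagen I fibrils and sets their thickness. Its level at 10 weeks was 326, 672 and 1171 CPM (lowest, median and highest) in fish 1 to 50, 238, 559 and 1123 CPM in fish 51 to 84, and 585, 1021 and 1399 CPM in fish 85 and above. At 20 weeks it was 70.3, 412 and 686 CPM, 15.9, 141 and 298 CPM, and 173, 525 and 833 CPM in the same order. Fish 51 to 84 thus had the lowest levels, and in that range only the highest later values reached the lowest earlier ones. The mean change was -0.87 ± 0.72, -2.11 ± 0.99 and -1.09 ± 0.44 (SD, n = 48, 34 and 32), and COL5A2 was lower in 110 of the 114 fish.

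COL6A1 and COL6A2 encode partner chains of collagen VI, a beaded filament around cells. COL6A1 had a median of 1176 CPM at 10 weeks (331 to 2170) and of 693 CPM at 20 weeks (137 to 1193). Its mean changes were -0.77 ± 0.63, -1.32 ± 0.48 and -1.02 ± 0.38, and it was not lower in 2 fish. COL6A2 had medians of 1218 CPM (315 to 2083) and 736 CPM (114.8 to 1288), and changed by -0.70 ± 0.66, -1.16 ± 0.60 and -0.99 ± 0.35. A second identifier with the name COL6A2, not among the 100, had a mean of 3.50 CPM at 10 weeks and 3.06 CPM at 20 weeks. The partner chains also varied together between fish of 1 age, as given further down. The identifier that the tables pair with both COL5A3 and COL11A1, chains of fibril-forming collagens, went from a median of 184 CPM (22.7 to 347) to one of 120 CPM (16.1 to 256), with changes of -0.67 ± 0.75, -1.12 ± 0.67 and -0.58 ± 0.28. Since it matched more than 1 name, and counts of close paralogs may be shared, its identity is uncertain.

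**Figure D2:**
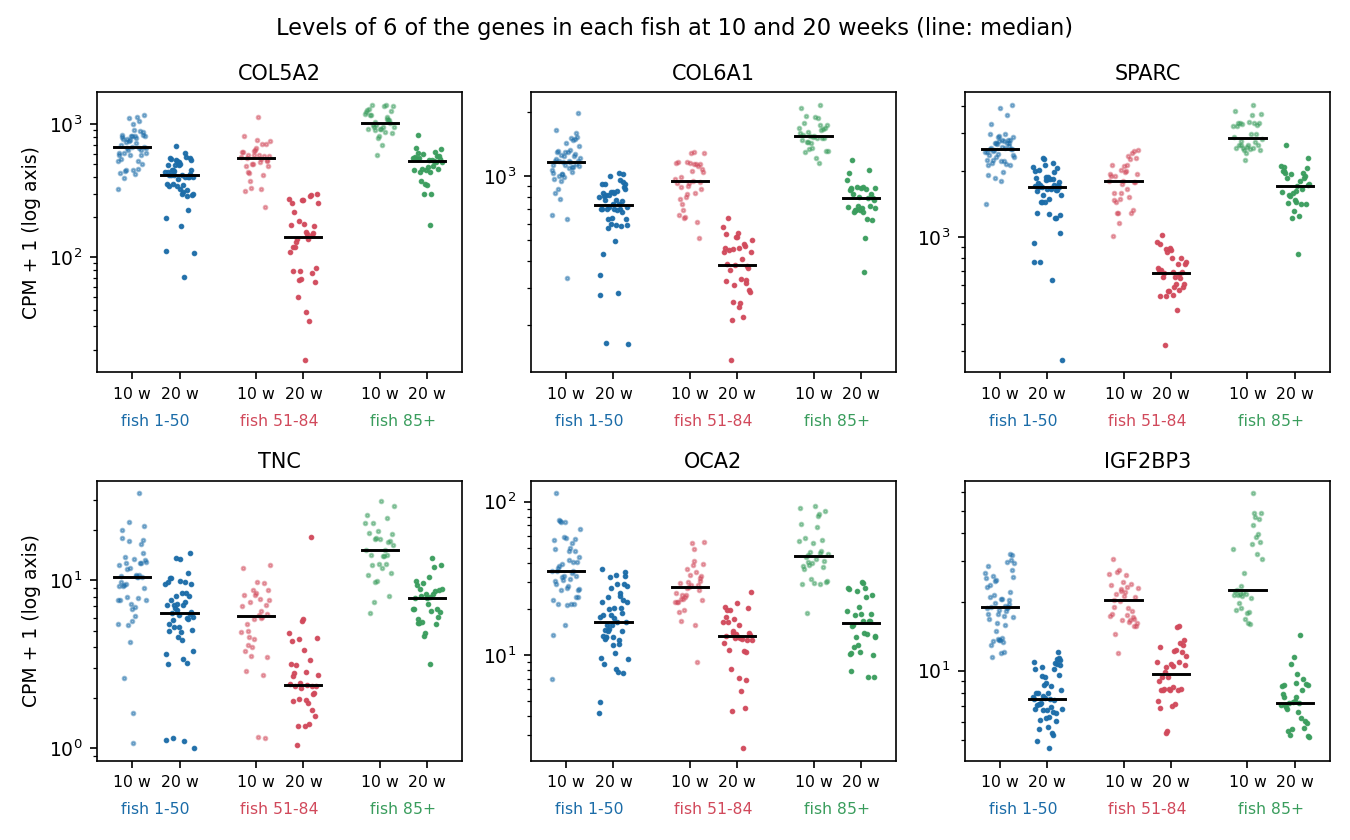
Levels of COL5A2, COL6A1, SPARC, TNC, OCA2 and IGF2BP3 (vertical log axes, CPM + 1) at 10 and 20 weeks, in fish 1 to 50, 51 to 84 and 85 and above; each point is 1 fish and the black line is the median. The later medians lie below the earlier ones in each range, and the fish with the lowest COL5A2 (15.9 CPM) is a later sample of fish 51 to 84.

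Another 4 named genes belong to the rest of the matrix. SPARC encodes osteonectin, a collagen-binding protein of bone and fibroblasts. It had medians of 2543 CPM (1421 to 4014), 1811 CPM (1004 to 2515) and 2840 CPM (2260 to 4043) at 10 weeks in the 3 ranges, and of 1694 CPM (272 to 2299), 684 CPM (318 to 1018) and 1719 CPM (830 to 2649) at 20 weeks. SPARC was lower in all 114 fish, with mean changes of -0.73 ± 0.55, -1.38 ± 0.41 and -0.80 ± 0.36. The later median of fish 51 to 84 was below that of both other ranges by more than the SD within any range.

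TNC encodes tenascin-C, a matricellular protein of growing and healing tissue. The gene among the 100 is Nfu_g_1_005495, 1 of 4 identifiers with that name. Its medians were 8.84 CPM (0.0789 to 32.1) at 10 weeks and 4.84 CPM (0 to 17.3) at 20 weeks. It was lower in 96 fish and not in 18, and the changes of -0.71 ± 1.30, -1.04 ± 1.15 and -1.01 ± 0.61 had a spread larger than the mean in fish 1 to 84. Of the other 3 identifiers, only Nfu_g_1_006372 reached a mean CPM of 5, and its changes were -0.02, -0.83 and 0.26, so that TNC did not fall in every range under each of its identifiers. Below that minimum, Nfu_g_1_014607 and Nfu_g_1_008823 changed by -0.94 ± 0.77 and -0.82 ± 0.60 over all fish, against -0.89 ± 1.10 for Nfu_g_1_005495. MMP2, a metalloproteinase that cleaves denatured collagen, had medians of 529, 426 and 676 CPM at 10 weeks and of 379, 241 and 471 CPM at 20 weeks in the 3 ranges, and changed by -0.58 ± 0.94, -0.78 ± 0.69 and -0.55 ± 0.32. HSPG2 encodes perlecan, a proteoglycan of basement membranes, and had medians of 72.1 CPM (39.1 to 120) and 47.5 CPM (27.9 to 68.4). Its fall was small but even, with changes of -0.51 ± 0.35, -0.66 ± 0.23 and -0.60 ± 0.27, and it was not lower in 6 fish.

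The matrix genes that the rule did not choose were counted from lists of collagens and of other matrix proteins and matrix enzymes. Of the symbols on these lists, 15 of 36 and 28 of 58 were found among the names, so that the counts are partial. Of 10 further collagen genes tested, 7 were lower at 20 weeks, 0 were higher and 3 were not called, at an adjusted p of 0.05 in edgeR's test over all genes. Of 26 further matrix genes, 19 were lower, 2 were higher and 5 were not called, against 29.7% lower among all genes tested. The list of these also held Nfu_g_1_016230, which carried the name SESN2, so that its place among matrix genes is uncertain. The median change of the 13 eligible collagens was -0.48, -0.67 and -0.38 in the 3 ranges, and that of the 28 other matrix genes was -0.32, -0.57 and -0.38. Chosen members are among those 13 and 28 (4 of each). All 3 range means were below 0 for 10 of the collagens and for 16 of the other matrix genes, against 11.96% of the eligible genes. For the 4 members in each of these counts, the rule itself brings this about.

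The named genes CALU, WFDC1 and NELL2 encode secreted proteins or proteins of the secretory pathway. CALU encodes calumenin, a calcium-binding protein of the endoplasmic reticulum, and had medians of 104.2 CPM (47.9 to 194) at 10 weeks and 66.6 CPM (20.2 to 129) at 20 weeks, with changes of -0.54 ± 0.59, -0.86 ± 0.46 and -0.59 ± 0.41. WFDC1, a small secreted protein with a whey acidic protein domain, went from 30.2 CPM (12.9 to 52.8) to 20.1 CPM (4.65 to 38.8). In fish 85 and above its levels did not overlap between the ages, since the lowest earlier value was 27.6 CPM and the highest later value 24.5 CPM. NELL2, a secreted glycoprotein known from the nervous system, had a median of 6.98 CPM at 10 weeks and of 4.54 CPM at 20 weeks.

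Folding factors of the endoplasmic reticulum were split by range. The median changes of the 22 eligible genes of that list were -0.10, -0.76 and 0.34. All 3 range means were below 0 for 1 of them, against 11.96% of the eligible genes. None was chosen, but only 100 of 12258 eligible genes were. Of 24 tested, 11 were lower over all fish, 1 was higher and 12 were not called, against 29.7% lower and 32.5% higher among all genes tested.

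Enzymes and replication factors formed a smaller part of the named genes. PHGDH, the first enzyme of serine synthesis, had levels of 21.002, 65.3 and 234 CPM (lowest, median and highest) in fish 1 to 50, 25.6, 70.97 and 137 CPM in fish 51 to 84, and 36.96, 79.1 and 178 CPM in fish 85 and above at 10 weeks. At 20 weeks these were 9.73, 39.4 and 91.6 CPM, 6.59, 12.2 and 43.05 CPM, and 15.2, 44.6 and 109.1 CPM. The 3 ranges began alike and parted later, with changes of -0.86 ± 0.99, -2.40 ± 0.74 and -0.89 ± 0.55. IDH2, a mitochondrial isocitrate dehydrogenase, had medians of 60.4 CPM (24.9 to 111.7) and 40.9 CPM (14.9 to 83.9) and changes of -0.49 ± 0.55, -0.93 ± 0.60 and -0.58 ± 0.37. PTS, an enzyme of tetrahydrobiopterin synthesis, had medians of 178 and 121 CPM. The changes of PTS, -0.57 ± 0.59, -0.49 ± 0.57 and -0.53 ± 0.34, were among the most even of all.

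DTL encodes the substrate receptor of a ubiquitin ligase that acts during DNA replication. It had medians of 8.65 CPM (1.57 to 29.1) and 4.55 CPM (0.199 to 22.3), and changes of -0.58 ± 1.16, -1.45 ± 1.01 and -0.63 ± 0.67. The lists of other genes of proliferation differed between the ranges. Of 24 genes of DNA replication, 22 were lower over all fish and 1 was higher, but the median changes of this list were -0.33, -1.29 and 0.08. Of 35 genes of cell division, 32 were lower and 1 was higher, with median changes of -0.77, -1.09 and 0.11 over the 28 eligible ones. Among all genes tested, 29.7% were lower and 32.5% higher. The rule asks for a low mean in every range, and no gene of either list was chosen, though only 100 of 12258 eligible genes were.

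The named genes with the lowest rule values were OCA2 and IGF2BP3. OCA2 encodes a melanosomal membrane protein needed for melanin synthesis. Its level was 5.99, 34.4 and 112.4 CPM (lowest, median and highest) in fish 1 to 50, 7.98, 26.7 and 53.8 CPM in fish 51 to 84, and 17.95, 43.2 and 93.05 CPM in fish 85 and above at 10 weeks. At 20 weeks it was 3.18, 15.5 and 35.3 CPM, 1.48, 12.3 and 24.9 CPM, and 6.18, 15.2 and 28.8 CPM. The levels of the ages overlapped in each range, and the changes were -1.14 ± 0.75, -1.18 ± 0.71 and -1.55 ± 0.65.

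IGF2BP3 encodes an RNA-binding protein that is abundant in embryos and fades from most adult tissues. It was lower in all 114 fish. Its level at 10 weeks was 10.5, 18.1 and 31.2 CPM in fish 1 to 50, 10.97, 19.3 and 29.9 CPM in fish 51 to 84, and 14.998, 21.4 and 58.5 CPM in fish 85 and above, and at 20 weeks 3.59, 6.56 and 11.1 CPM, 4.35, 8.63 and 14.6 CPM, and 4.12, 6.26 and 13.3 CPM. In fish 85 and above the highest later value lay below the lowest earlier one. Unlike most of the set, IGF2BP3 fell least in fish 51 to 84, with changes of -1.32 ± 0.37, -1.05 ± 0.43 and -1.86 ± 0.66. ZNF185, a LIM domain protein of the actin cytoskeleton, also fell least there, by -0.52 ± 0.87, and most in fish 1 to 50, by -1.02 ± 1.02, and had medians of 20.7 and 10.6 CPM over all fish.

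**Figure D3:**
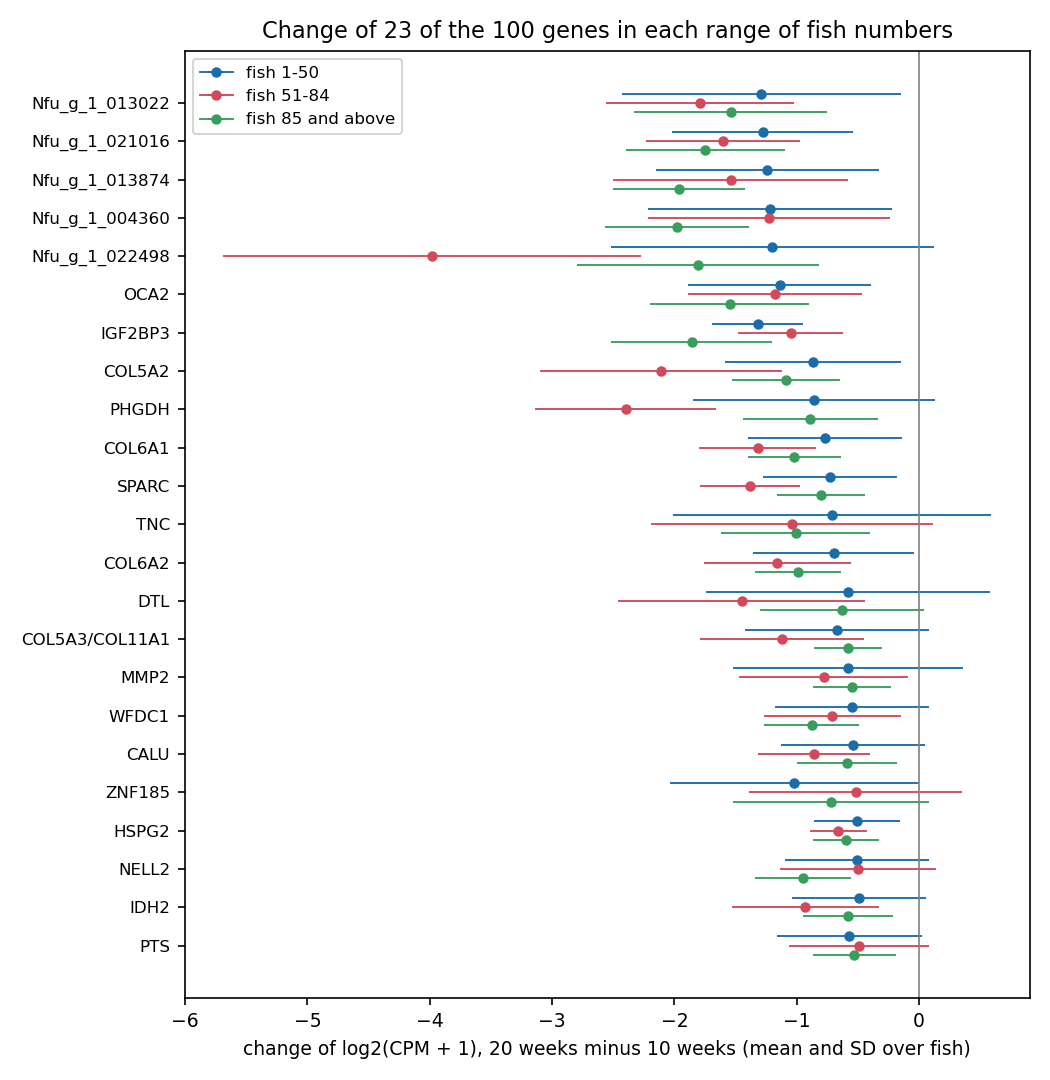
Change of log2(CPM + 1) between 10 and 20 weeks (horizontal axis) for the 18 named genes and the 5 genes with the lowest rule values, in rank order from the top. Points are means over the 48, 34 and 32 fish of the ranges and bars are 1 SD; PHGDH, COL5A2 and Nfu_g_1_022498 fell furthest in fish 51 to 84, with means of -2.40, -2.11 and -3.98.

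The lowest rule values belonged to genes without a name. Nfu_g_1_013022, the first in rank, had medians of 15.5 CPM (1.69 to 83.9) at 10 weeks and 5.73 CPM (0.238 to 34.3) at 20 weeks, with changes of -1.29 ± 1.14, -1.79 ± 0.77 and -1.54 ± 0.79. Nfu_g_1_021016, Nfu_g_1_013874 and Nfu_g_1_004360, next in rank, fell most in fish 85 and above, by -1.75 ± 0.65, -1.96 ± 0.54 and -1.98 ± 0.59. Nfu_g_1_022498, the fifth, had a median of 597 CPM (64.1 to 1385) in fish 51 to 84 at 10 weeks and of 36.1 CPM (1.99 to 192) at 20 weeks. In the other ranges its medians went from 944 to 458 CPM and from 1863 to 703 CPM, so that its fall was far deeper in fish 51 to 84. The deepest mean of all, -4.26 ± 1.70, was that of Nfu_g_1_015191 in fish 51 to 84, singled out after its value was seen, where its median went from 1748 CPM (381 to 3323) to 129 CPM (3.91 to 589).

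The 3 genes that took the most counts, with no allowance for gene length, were chosen for description after their values were seen: Nfu_g_1_018490, Nfu_g_1_023149 and Nfu_g_1_013298. Nfu_g_1_018490 had medians of 8300, 7054 and 15116 CPM at 10 weeks and of 4479, 1222 and 6200 CPM at 20 weeks in the 3 ranges. In fish 51 to 84 its highest later value, 2328 CPM, lay below its lowest earlier one, 2765 CPM, and the same held for Nfu_g_1_023149, Nfu_g_1_013298, Nfu_g_1_020720 and Nfu_g_1_013039. That made 5 of the 100 genes without overlap in fish 51 to 84, against 0.0571% of the eligible genes. In fish 85 and above there were 8, IGF2BP3 and WFDC1 among them, against 0.636%, and in fish 1 to 50 there were 0 of the 100 and 0% of the eligible genes. These counts use the contrast of the rule and describe the set only.

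The rule did not compare the ranges at a single age. Levels at both ages entered its changes, however, so that the counts that follow are not independent of it. At 10 weeks, edgeR's quasi-likelihood F test over the 3 ranges called 12084 of 17506 genes (69.03%) at an adjusted p of 0.05, and 84 of the 100. At 20 weeks it called 13941 of 17527 genes (79.5%), and 91 of the 100. Since most genes differed between the ranges, these counts lie only somewhat above the background.

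The order of the ranges was much the same from gene to gene. Fish 85 and above had the highest mean level at 10 weeks for 90 of the 100 genes, against 34.1% of the eligible genes, and at 20 weeks for 70, against 40.3%. Fish 51 to 84 had the lowest mean level for 88 genes at 10 weeks, against 37.1%, and for 90 at 20 weeks, against 42.5%. The median gap between the highest and the lowest range was 0.69 on the log2(CPM + 1) scale at 10 weeks and 0.99 at 20 weeks, and 0.25 and 0.33 over the eligible genes. A test of the order itself was not made, and the genes move together between fish, so that the 100 counts are not independent.

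PTS, ZNF185, PHGDH and DTL were the named genes that did not differ between the ranges at 10 weeks by the test, with adjusted p of 0.476, 0.107, 0.303 and 0.581 in edgeR's test. At 20 weeks PHGDH and DTL did differ, with adjusted p of 1.03e-17 and 6.7e-07, and ZNF185 had 0.00463. PTS remained the exception with 0.079.

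Fish of 1 age also differed from each other within a range. After the mean of each range was removed, the correlation of log2(CPM + 1) between a pair of the 100 genes over 114 fish had a median of 0.20 at 10 weeks and 0.35 at 20 weeks, against 0.08 and 0.11 between eligible genes. An r above 0.5 was reached by 17.96% and 28.85% of the pairs, against 9.07% and 9.48%. The points share libraries and depth, and no test was made.

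Average linkage on the correlations at 10 weeks placed 89 of the 100 genes in 8 groups of 3 or more (mean r of 0.4 or more at the join), so that r inside a group is fixed in part by the grouping at 10 weeks but not at 20 weeks. The largest held 46 genes and 9 of the named ones, namely COL5A2, COL6A1, COL6A2, SPARC, MMP2, HSPG2, CALU, WFDC1 and NELL2. Its median r inside was 0.54 at 10 weeks and 0.58 at 20 weeks, and its best connected genes were Nfu_g_1_013039 and COL6A1, both with a mean r of 0.67 to the rest of the group at 10 weeks. The 3 genes that took the most counts were in it too. TNC and COL5A3/COL11A1 stood in another group of 7 genes, together with the first and the fourth gene in rank, and IGF2BP3 in one of 9. The group of TNC had a median r of 0.54 and 0.66 inside, and of 0.25 and 0.44 to the others. TNC itself had an r of 0.53 and 0.59 with COL5A3/COL11A1. With COL6A1 it had 0.62 and 0.79, and with COL5A2 0.34 and 0.67.

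OCA2 belonged to a tight group of 6 genes with a median r of 0.71 at 10 weeks and 0.70 at 20 weeks inside the group, and of only 0.11 and 0.18 to the other genes of the set. The other 5 genes of the group have no name, and the best connected of them was Nfu_g_1_021252, with a mean r of 0.79. PHGDH, DTL and IDH2 shared a group of 5 genes (0.58 and 0.51 inside, 0.09 and 0.13 to the others). ZNF185 was in a group of 4 genes with a median r of -0.05 and -0.11 to the others. At 20 weeks ZNF185 itself had an r of -0.35 with COL6A2 and WFDC1 and of -0.28 with COL5A2 and SPARC. PTS was in a group of 4 with 0.50 and 0.55 inside.

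The groups also differed in how deep the fall was in each range. The median change of the 46 genes with the collagens was -0.72, -1.23 and -1.04 in the order of the ranges, and that of the group of PHGDH, DTL and IDH2 was -0.58, -1.45 and -0.63. The group of ZNF185 had -1.16, -0.77 and -0.71, and was the only one of the 8 with its deepest median in fish 1 to 50. The groups of OCA2 (-0.70, -0.83 and -0.87) and of TNC (-1.32 in fish 85 and above) had theirs in the last range.

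**Figure D4:**
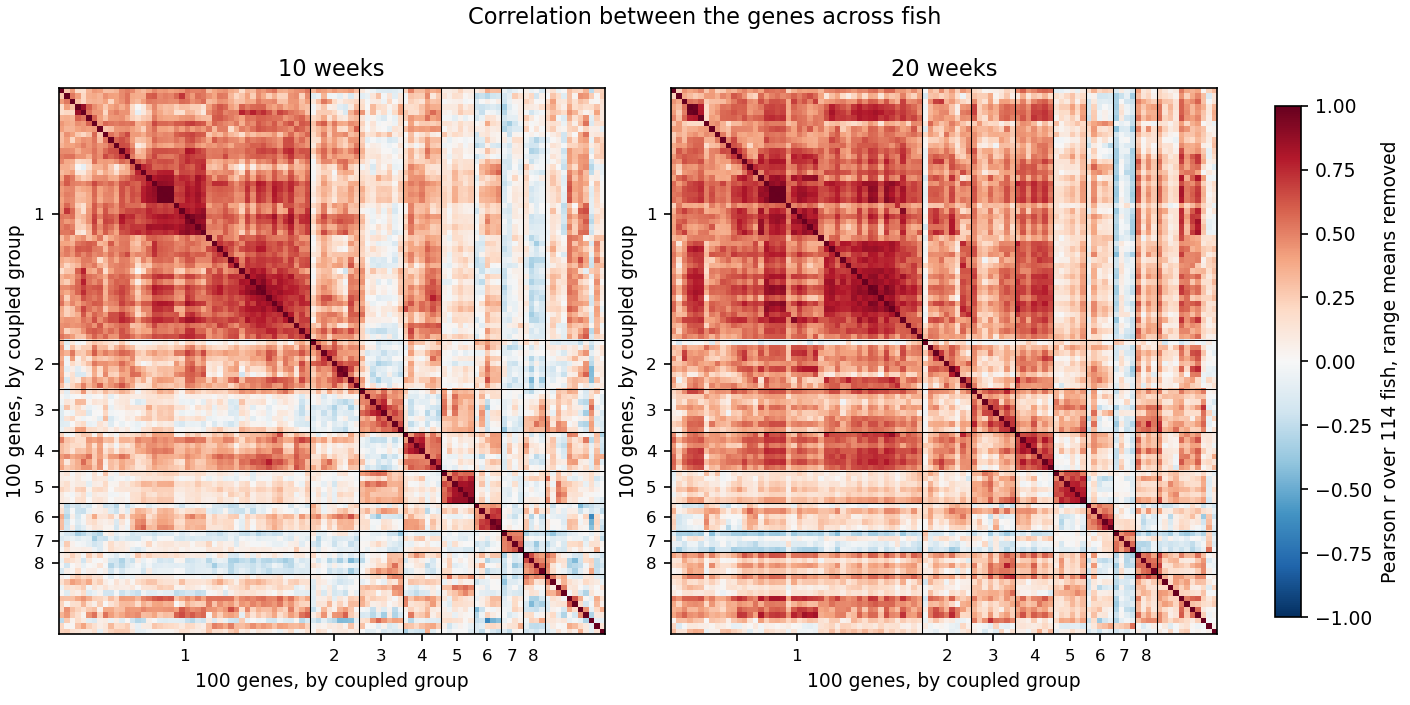
Pearson correlation between the 100 genes (both axes, in the same order) across 114 fish at 10 weeks (left) and 20 weeks (right), after the mean of each range of fish numbers was removed; red is positive and blue negative. Black lines bound the 8 coupled groups, and the remaining genes follow after group 8; the first group of 46 genes has a median r of 0.54 and 0.58, and group 5 with OCA2 one of 0.71 and 0.70.

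Levels at 10 and 20 weeks were only weakly related in the same fish. The correlation between the ages over 114 fish, with range means removed, had a median of 0.24 over the 100 genes, from -0.08 to 0.65, against 0.17 over the eligible genes, and without the 12 fish whose libraries did not match the medians were 0.25 and 0.17.

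Whether the level of a gene went with the risk of death was asked with a Cox proportional hazards model per gene, with the 3 ranges as strata. At 20 weeks, 67 of 17116 genes (0.391%) were called at an adjusted p of 0.05, and for 44 of them (0.257%) a higher level went with a lower risk. Of the 100 genes, 5 were called, all with a lower risk at a higher level. The fall between the ages had chosen these genes, and age at death had not. The level at 20 weeks entered that fall, however, so that the counts of the 100 genes are not independent of the rule.

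COL5A2 was the only named gene among the 5. Its hazard ratio per log2 unit at 20 weeks was 0.574 (95% interval 0.441 to 0.747), with an adjusted p of 0.0212 in the Cox model over all genes. The lowest adjusted p of the 5 was that of Nfu_g_1_022498, 0.00524 in the same model, with a hazard ratio of 0.648 (0.543 to 0.772) per log2 unit. Nfu_g_1_020720 had 0.498 (0.367 to 0.677) with an adjusted p of 0.00988. COL5A2, Nfu_g_1_022498 and Nfu_g_1_020720 all belonged to the coupled group of 46 genes, so that they are not separate observations.

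At 20 weeks Nfu_g_1_020720 had medians of 48.7 CPM (6.40 to 78.8), 10.6 CPM (3.74 to 27.1) and 53.1 CPM (13.4 to 87.2) in the 3 ranges, and Nfu_g_1_008151 had 51.9 CPM (12.6 to 78.4), 19.4 CPM (7.94 to 51.2) and 49.1 CPM (30.3 to 64.3). Both had their lowest median in fish 51 to 84, the range with the earliest median death. That range had the lowest mean level at 20 weeks for 90 genes of the set, against 42.5% of the eligible genes. The Cox model had the ranges as strata, so that this difference between ranges did not enter its hazard ratios. Nfu_g_1_015114 did not differ between the ranges at 10 weeks, with medians of 78.9, 71.2 and 70.9 CPM and an adjusted p of 0.642 in edgeR's test, but had medians of 46.98 CPM (0.693 to 163), 3.44 CPM (0.217 to 28.4) and 43.8 CPM (1.55 to 110) at 20 weeks.

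Nfu_g_1_008151 had a hazard ratio of 0.458 (0.314 to 0.666) and Nfu_g_1_015114 one of 0.766 (0.670 to 0.876), with adjusted p of 0.0240 and 0.0380. Over the whole set, 74 of the 100 genes had a hazard ratio below 1, against 49.4% of all genes tested, and 26 had an unadjusted p under 0.05, 25 of them below 1, against 14.1% in either direction. In the group of 46 genes, 39 had a hazard ratio below 1, with a median of 0.841 per SD of the level. In the group of OCA2, 2 of 6 did, with a median of 1.10. An unadjusted p under 0.05 was found for 16 genes of the first group and 0 of the second. Genes of a group vary together, so that they are not separate observations, and the groups were not compared by a test. Among the other named matrix genes, HSPG2 had a hazard ratio per log2 unit of 0.282 (0.122 to 0.652), or 0.702 per SD. SPARC had one of 0.630 (0.395 to 1.01), or 0.728 per SD. The adjusted p were 0.132 and 0.366 in this Cox model, so that neither was called.

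The number of calls differed between the settings. When the 9 fish that died within 24 weeks (2, 5 and 2 in the 3 ranges) were left out, 0 of the 100 genes were called by the Cox model, against 0.0467% of all genes, 12 had an unadjusted p under 0.05, against 11.5%, and COL5A2 had a hazard ratio of 0.623 (0.461 to 0.843) with an adjusted p of 0.204. A hazard ratio below 1 was then found for 61 of the 100 genes, against 48.6%, with a median of 0.951 per SD. With 12 groups of fish numbers as strata, 23 of the 100 genes were called, the 5 and HSPG2 among them, against 0.958% of all genes. Without the 4 fish with a low TMM factor there were 12, against 1.38%. In the 12 fish whose libraries did not match, a library may stand beside the age at death of another fish. Without them 4 of the 100 were called, and the share of all genes was not counted. Nfu_g_1_015114 then had an adjusted p of 0.0685 in the Cox model. A hazard ratio below 1 was found for 67 of the 100, against 49.2%. Within each range alone 0 of the 100 were called, against 1.21%, 0% and 0% of all genes. In that order, 8, 41 and 11 of them had an unadjusted p below 0.05, against 21.1%, 6.26% and 7.51% of all genes. All 41 of fish 51 to 84 had a hazard ratio below 1.

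The hazard ratios of the 5 genes lay below 1 in each range alone, with 1 exception. In the order of the ranges, Nfu_g_1_022498 had 0.548, 0.702 and 0.576, Nfu_g_1_020720 had 0.427, 0.557 and 0.460, and COL5A2 had 0.486, 0.596 and 0.608. Nfu_g_1_015114 had 0.774, 0.784 and 0.660, whereas Nfu_g_1_008151 had 0.361 and 0.498 in the first 2 ranges and 1.38 in fish 85 and above. Of the 100 genes, 47, 90 and 74 had a hazard ratio below 1, against 49.9%, 46.9% and 51.5% of all genes, with medians of 1.02, 0.726 and 0.868 per SD. In fish 1 to 50, the range with the most fish, the share was thus near that of all genes, and the difference between these counts was not tested.

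At 10 weeks no gene was called. In the stratified Cox model, 0 of 17116 genes (0%) and 0 of the 100 were called. An unadjusted p under 0.05 was found for 2 of the 100, against 1.72% of all genes. A hazard ratio below 1 was found for 40 of the 100, against 48% of all genes. With 12 groups of fish numbers as strata, 90 had one, against 49.1%, and 9 had an unadjusted p under 0.05. Within each range alone, 32, 83 and 25 had one below 1, against 50.6%, 50.5% and 47.4%. The direction at 10 weeks thus differed between the settings, and these counts were not compared by a test. COL5A2 at 10 weeks had a hazard ratio of 1.20 (0.685 to 2.11) and Nfu_g_1_022498 one of 0.963 (0.723 to 1.28). The difference between the ages was not tested.

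**Figure D5:**
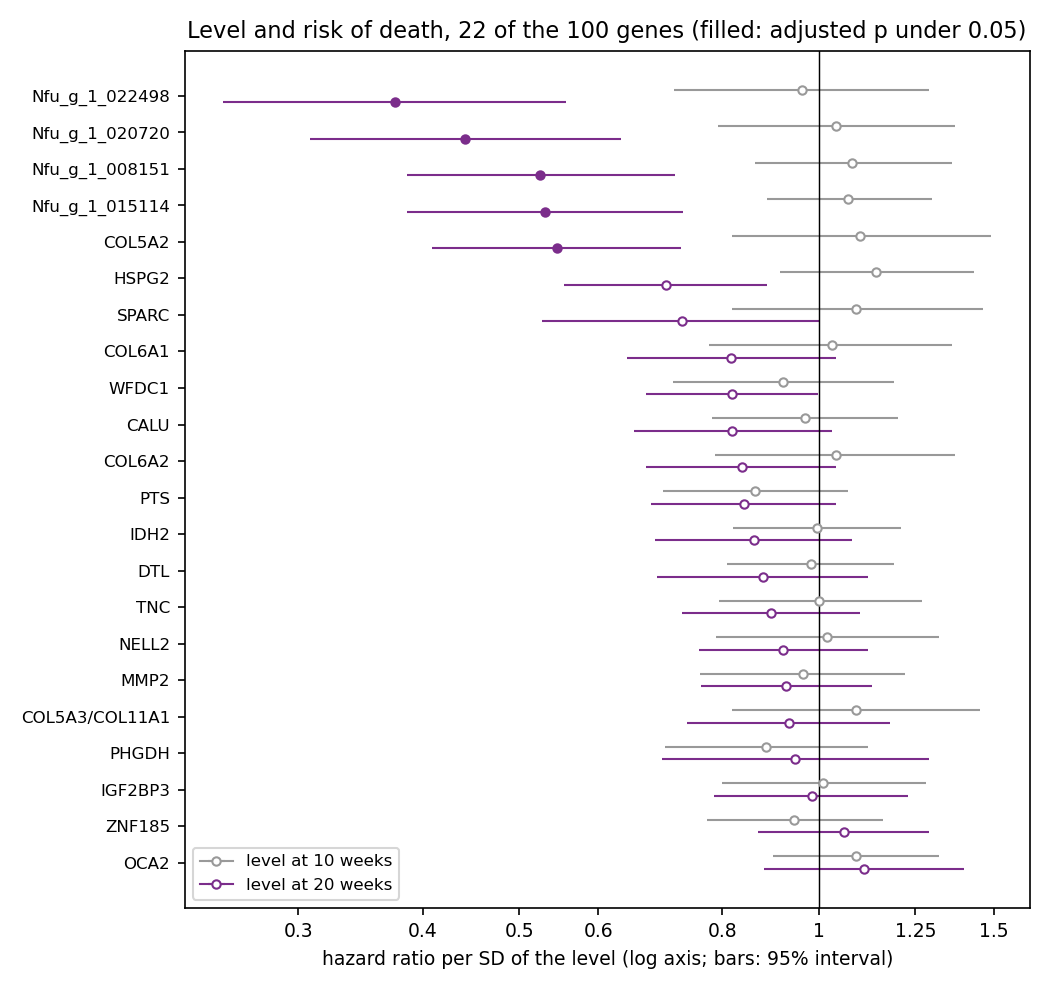
Hazard ratio per SD of the level (horizontal log axis, bars are 95% intervals) at 10 weeks (grey) and 20 weeks (purple) for the 18 named genes and the 4 called genes without a name, from the Cox model with 3 strata over the fish of known age at death. Filled points have an adjusted p under 0.05: they are the 5 genes at the top, all at 20 weeks and all below 1.

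Without strata, 68 of the 100 genes were called at 10 weeks, against 25.3% of all genes, and 70 at 20 weeks, against 43.96%. Age at death and the levels of these genes both differed between the ranges, so that in this form the level and the range cannot be told apart. A difference of the hazard ratio at 20 weeks between the ranges was called by the test of interaction for 0 of the 100 genes and for 0 of 17116 genes (0%). An unadjusted p below 0.05 was found for 22 of the 100, against 12.9%.

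Marker genes of other cell types were counted beside the set, against 29.7% lower and 32.5% higher among all genes tested. Those of basal epidermis had summed medians of 163546, 167644 and 166780 CPM at 10 weeks and of 168008, 136510 and 158341 CPM at 20 weeks in the 3 ranges, and 4 of 13 were called lower and 6 higher over all fish. Of 7 leukocyte markers, 5 were higher and 0 lower. Of the markers of bone-forming cells only 2 were found, SPARC itself and ALPL, a phosphatase of mineralising cells. Their summed medians went from 2592 to 1750 CPM, from 1861 to 708 CPM and from 2880 to 1773 CPM. SPARC, 1 of the 100 genes, made up most of that sum, so that the fall of the sum follows from the rule. ALPL was the 1 tested marker of this list outside the 100, and it was called lower. Red blood cell markers, 9 genes with 1 at 0 everywhere, went from 214 to 153 CPM, from 172 to 123 CPM and from 237 to 114 CPM, and 3 of 4 tested were lower. Of 4 muscle markers tested, 2 were lower and 2 higher. Of 6 endothelial markers 2 were lower, and of 5 glial markers 2 were lower, with 0 higher in either list. The lists are short, and a count near the shares of all genes says nothing about a cell type. The part of these cell types in the fall of the 100 genes was not tested.

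The ribosome went the other way. Of 62 genes of cytosolic ribosomal proteins, 58 were higher at 20 weeks and 0 lower, against 32.5% and 29.7% of all genes tested. All 3 range means were above 0 for 56 of them, and for 1920 of the 12258 eligible genes. Proteasome genes were split by range, with median changes of 0.02, -0.67 and 0.36 over the 31 eligible ones. None was among the 100 genes, but only 100 of 12258 eligible genes were chosen. Of 32 tested over all fish, 8 were lower, 1 was higher and 23 were not called, against the same shares of all genes.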

How the data were processed

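RNA-seq was carried out on 228 fin clip libraries. The values deposited by the authors are raw counts, whole numbers for each gene in each library. Tools named in the submitters' processing notes were featureCounts 1.5.0, TopHat2 2.1.0 and, for base calls, bcl2fastq 1.8.4. For these fin clip libraries, genome build and annotation were not given in the sources used here. TruSeq RNA v2 libraries carry no strand information, and reads of overlapping antisense genes or close paralogs may therefore be mixed. Every column matched 1 sample by its description, and 0 columns of other samples were left out. Gene names came from the study's annotation tables, which held names for 5613 of the identifiers in the form used here. The members, gene lists and tests were chosen with earlier results of these data known.

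CPM was computed from column totals, and 1 was added before taking log2. Tests across genes used edgeR 4.0.16 (TMM, filterByExpr, quasi-likelihood F test) in R 4.3.3, with limma 3.58.1 and DESeq2 1.42.0 as alternatives. Labels name the animal of each sample, so the fish was a block in the comparison of ages. Cox models (package survival 3.8.3, ties after Efron, Wald test, two-sided) used log2 of counts divided by DESeq2 size factors, plus 1, and the interaction a likelihood ratio test. P-values were adjusted by Benjamini-Hochberg over all genes tested, at 0.05. More genes were tested than were eligible, so that shares of all genes tested, also in the Cox models, cover genes that could not be chosen. Every fish is 1 animal, but nothing says how samples were spread over sequencing runs. On simulated data with known answers, for 2000 genes, the age test recovered 100% of 200 changed genes at a log2 change of 0.5, the test of ranges 97.5% at 0.5, the Cox test 89.5% at 0.3 per SD of age at death, and the interaction 88% at 0.4.

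Named were the 5 genes with the lowest rule values, the named genes among the 100, genes called in a Cox model, the genes at the threshold and the best connected of a coupled group.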

Additional observations from a re-analysis of the deposited data

How the results depend on the processing

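Under the alternative scalings, pseudocounts, CPM minima and summaries, 70 to 92 of the 100 genes were chosen again; the lowest number came with a minimum mean CPM of 20, under which 30 were not eligible. The fish was a block in the age comparison; with no replicate block 4815 genes were lower, against 5088, and 99 of the 100 genes were among them. The 84 and 91 genes that differed between ranges became 78 to 84 and 90 to 91. Called in the Cox model at 10 weeks were 0 genes, and 68 without strata, the only setting that gave any. At 20 weeks, 5 became 70 without strata, 23 with 12 groups as strata, 12 without fish with a low TMM factor (chosen after seeing the data), 0 without fish that died within 24 weeks and 0 in each range alone (also chosen after seeing the data). Other settings gave 4 to 6. Nfu_g_1_008151 turned to a hazard ratio of 1.38 in fish 85 and above alone. The cause of these shifts was not tested, though the fits within a range hold fewer fish. No fish was left out singly, since each group held over 5 fish.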
